A study of Mus musculus with 6 samples.

Results

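Genes that carry vitamin A into and through the intestinal epithelium were measured as messenger RNA in mice with and without an induced deletion of Myc, a transcription factor that drives cell growth. The 9 genes were chosen by symbol for their place in vitamin A uptake and metabolism (Stra6l, Rbp2, Bco1, Isx, Lrat, Rdh7, Dhrs9, Aldh1a1 and Aldh1a3), and all 9 were found among the 47643 genes of the table and passed the filter on low counts. The Myc-deleted group, labelled MycΔIE, ERT2, and the control group, labelled Mycfl/fl, each held 3 intestinal libraries of male C57BL/6 mice aged 7 to 8 weeks. Both groups had been given tamoxifen by injection and a 60% high-fat diet (HFD) for 2 weeks, so neither is an untreated intestine on normal chow. The labels name no promoter for the recombinase and do not say whether the controls carry one, so the deletion and the activity of any recombinase cannot be told apart. They also give no animal identifiers, so the p-values measure the spread between these libraries.

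As background, the small intestine takes in vitamin A as carotenoids of plants and as retinyl esters of animal foods. Carotenoids are cleaved to retinal by Bco1, and retinol inside the enterocyte is held by the binding protein encoded by Rbp2, esterified by Lrat and exported in chylomicrons. A smaller part is oxidised, first to retinal by retinol dehydrogenases and then to retinoic acid by the Aldh1a enzymes, and retinoic acid acts through nuclear receptors. In mice retinoic acid induces the homeobox gene Isx, whose product represses Bco1, which closes a feedback loop on carotenoid use.

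The libraries held 9956938 to 11328693 expected counts. Counts of Myc were 36, 47 and 63 in Myc-deleted libraries 1 to 3, against 59, 70 and 59 in control libraries 1 to 3, a difference below the threshold of the edgeR test (adjusted p = 0.318, log2 fold change -0.41 ± 0.22 SE). In CPM (TMM-scaled library-size-normalised counts), Myc had 3.29, 4.37 and 5.81 in Myc-deleted libraries 1 to 3, against 5.86, 6.05 and 6.03 in control libraries 1 to 3. Every Myc-deleted library thus lay below every control, as for 13.7% of all tested genes. Myc-deleted library 3 was nearly level with control library 1. Its Myc level therefore did not clearly set it apart from the controls, and the group names follow the labels. The extraction protocol names liver, the other labels the intestine. Fabp6, the bile acid binding protein of the ileum, averaged 10560 ± 951 CPM in the Myc-deleted libraries and 11000 ± 1462 CPM in the controls (SD, n = 3 each). Alb, the albumin gene of hepatocytes, had at most 10 counts in a Myc-deleted library and at most 37 in a control. Of 7 pancreatic acinar markers Pnlip, Cela2a, Cpa1 and Prss2 had 0 counts in every library, Ctrb1 and Amy2a5 were counted at most 1 or 2 times, and Cela1 was tested and was higher in the Myc-deleted libraries. Control library 2 stood apart in smooth muscle genes, with 25.9 CPM of Myh11, against 2.23 to 4.58 CPM in the Myc-deleted libraries and 4.67 and 5.01 CPM in the other controls. Results that rest on that library are also given without it.

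In the Myc-deleted libraries, 2 of the 9 genes rose and none fell. Rbp2, the binding protein that holds retinol and retinal in enterocytes, was 1.62-fold higher, and Stra6l, which encodes a receptor for retinol-binding protein known as RBPR2 in mice, was 1.58-fold higher. The other 7 did not pass the test, among them Isx, Bco1 and Lrat. Each call was an adjusted p under 0.05 by the edgeR quasi-likelihood test over 12720 genes. Of all tested genes, 7.95% were called, 4.22% higher and 3.73% lower. By DESeq2, 0 of the 9 were called in either direction, with 2 higher and 0 lower at an unadjusted p under 0.05. By edgeR 3 were higher and 0 lower at an unadjusted p under 0.05. The median log2 fold change of the 9 was 0.17, beside -0.002 over all tested genes.

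**Figure D1:**
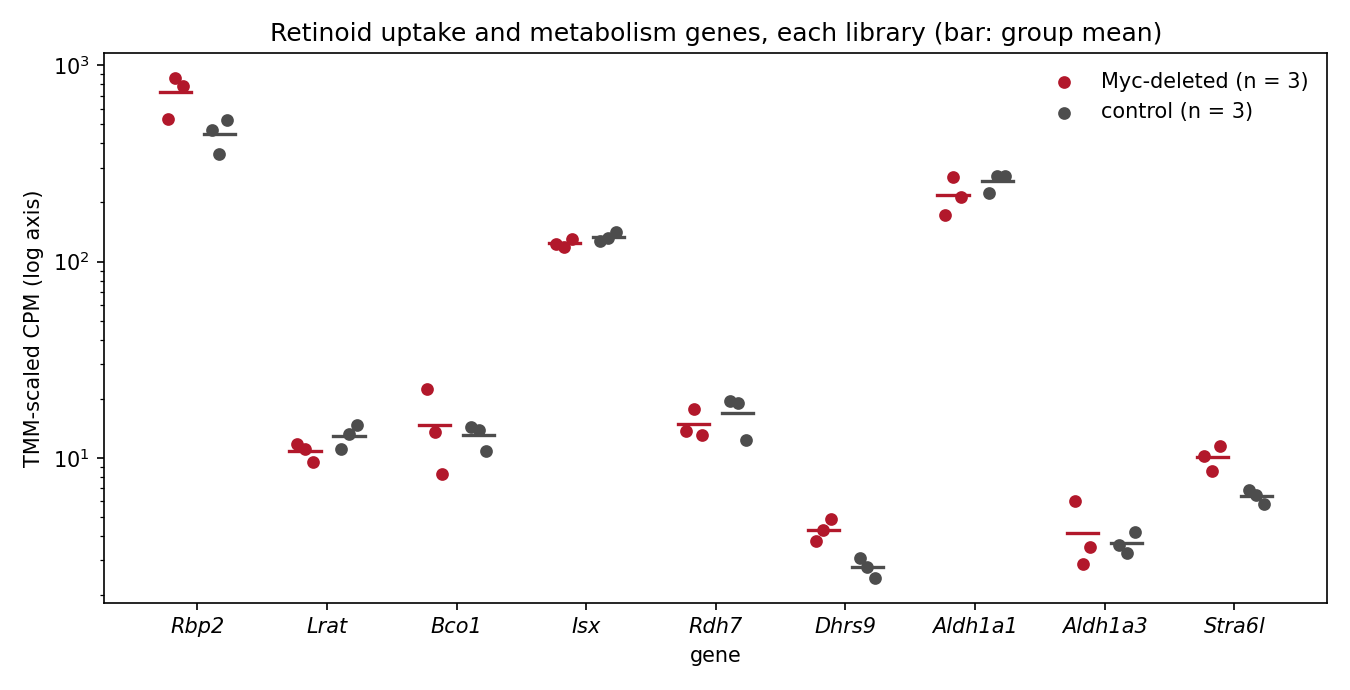
TMM-scaled CPM (log axis) of the 9 genes, with 1 point per library and a bar at each group mean (n = 3 each). All 3 Myc-deleted libraries lie above all 3 controls for Rbp2, Stra6l and Dhrs9, and the groups overlap for the other 6 genes.

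Rbp2 (ENSMUSG00000032454.9, chromosome 9, 98486115 to 98509781, plus strand, GRCm38) had 531, 862 and 789 CPM in Myc-deleted libraries 1 to 3, against 466, 352 and 526 CPM in control libraries 1 to 3. Every Myc-deleted library lay above every control, but Myc-deleted library 1 and control library 3 were nearly level. Groups that did not overlap were found for 27.8% of all tested genes, 14.0% with the Myc-deleted libraries above, and for 3 of the 9, all with the Myc-deleted libraries above. The mean was 727 ± 174 CPM in the Myc-deleted libraries and 448 ± 88.5 CPM in the controls (SD, n = 3 each). The log2 fold change was 0.70 ± 0.19 (SE), with a 95% interval of 0.28 to 1.12 and an edgeR adjusted p of 0.0499. With 4070 to 9281 counts a library, Rbp2 was deeply counted, and the spread between libraries set its error. The call was lost with RLE scaling (adjusted p = 0.0513), DESeq2 (0.0738) and limma voom (0.0547). Omitting control library 1, 2 or 3 in turn gave an edgeR adjusted p of 0.112, 0.185 and 0.0563, and omitting Myc-deleted library 1, 2 or 3 gave 0.00866, 0.164 and 0.128. Without control library 2, the one rich in smooth muscle RNA, the log2 fold change was 0.54.

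Stra6l (ENSMUSG00000028327.14, chromosome 4, 45848664 to 45887008, plus strand) had 10.3, 8.54 and 11.4 CPM in Myc-deleted libraries 1 to 3, against 6.86, 6.48 and 5.82 CPM in control libraries 1 to 3. The groups did not overlap. These levels come from 92 to 124 counts in a Myc-deleted library and 57 to 75 in a control. The log2 fold change was 0.66 ± 0.16 (SE; 95% interval 0.29 to 1.02; edgeR adjusted p = 0.0366). It was within 0.55 to 0.75 under all 15 alternatives tried, while the call held under 8 of them. Leaving out control library 1, 2 or 3 gave an edgeR adjusted p of 0.0726, 0.116 and 0.105, and leaving out Myc-deleted library 1 or 3 gave 0.0797 and 0.116. Without Myc-deleted library 2 it was 0.0373.

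**Figure D2:**
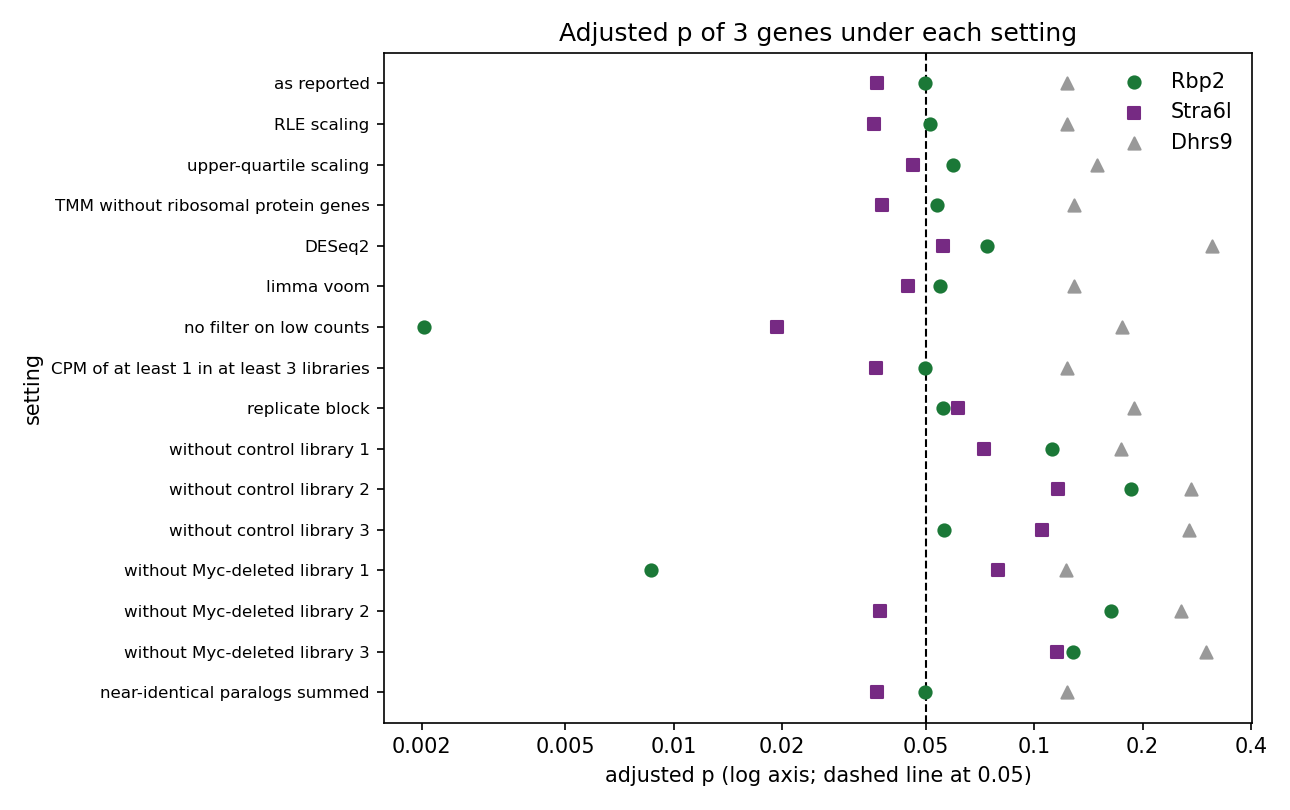
Adjusted p (log axis, dashed line at 0.05) of Rbp2, Stra6l and Dhrs9 as reported and under 15 alternative settings. Rbp2 passes under 4 of the alternatives and Stra6l under 8, while Dhrs9 passes under none, with 0.123 as its lowest value.

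The other genes of uptake and binding were mostly scarce. Scarb1, the brush-border receptor that takes up carotenoids and a target of Isx repression, had 2.10, 3.07 and 2.58 CPM in Myc-deleted libraries 1 to 3, against 1.99, 1.38 and 1.43 CPM in the controls, and did not pass (log2 fold change 0.69 ± 0.30 SE, edgeR adjusted p = 0.206). Rbp4, whose protein carries retinol in blood and binds the receptor encoded by Stra6l, had 13, 14 and 18 counts in the Myc-deleted libraries, against 6, 6 and 5 in the controls. Its groups did not overlap, yet it did not pass (1.33 ± 0.38, edgeR adjusted p = 0.0618). Rbp7, which encodes a further cellular retinol-binding protein, fell. It had 0.732, 1.95 and 1.20 CPM in the Myc-deleted libraries, against 5.86, 3.54 and 5.93 CPM in the controls (log2 fold change -1.97 ± 0.36 SE, edgeR adjusted p = 0.00973). Crabp1 and Crabp2, the retinoic acid binding proteins, had 0 counts in every library, which allows up to 0.259 to 0.306 CPM a library (3 counts, counting error only).

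Among the carotenoid genes, Isx was steady and Bco1 was spread widely between libraries. Isx (chromosome 8, 74873173 to 74893506) had 122.5, 119 and 130.5 CPM in Myc-deleted libraries 1 to 3, against 128, 132 and 141 CPM in control libraries 1 to 3. The ranges overlapped, and the difference did not pass (log2 fold change -0.11 ± 0.08 SE, edgeR adjusted p = 0.448). Its 95% interval, -0.28 to 0.06, was the narrowest of the 9 genes. Bco1 (chromosome 8, 117095854 to 117133720) had 22.5, 13.5 and 8.30 CPM in Myc-deleted libraries 1 to 3, against 14.3, 13.9 and 10.8 CPM in the controls. Both the highest and the lowest Bco1 level of the study were in the Myc-deleted group. The log2 fold change was 0.18 ± 0.29 (SE; edgeR adjusted p = 0.779), and it was -0.26 without Myc-deleted library 1. With a 95% interval of -0.48 to 0.84, a moderate change of Bco1 in either direction was not detectable with these libraries. Bco2, which cleaves carotenoids off centre in mitochondria, had 46.3 ± 8.38 CPM in the Myc-deleted libraries and 45.4 ± 6.09 CPM in the controls (SD, n = 3 each; log2 fold change 0.03 ± 0.14 SE, edgeR adjusted p = 0.931).

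The promoters of Rbp2 and Stra6l, the genes that rose, and of Bco1 are shown because Rbp2 and Bco1 share a run of letters just before their start. The RefSeq windows (GRCm38.p6) reach from 250 bases before to 50 bases after the start and lie on the plus strand at chr9:98490287-98490586 for Rbp2, chr4:45848566-45848865 for the first listed start of Stra6l and chr8:117095615-117095914 for Bco1. Capitals mark TGACCTTTG, whose opposite strand holds AGGTCA, the letters read by many nuclear receptors.
Rbp2: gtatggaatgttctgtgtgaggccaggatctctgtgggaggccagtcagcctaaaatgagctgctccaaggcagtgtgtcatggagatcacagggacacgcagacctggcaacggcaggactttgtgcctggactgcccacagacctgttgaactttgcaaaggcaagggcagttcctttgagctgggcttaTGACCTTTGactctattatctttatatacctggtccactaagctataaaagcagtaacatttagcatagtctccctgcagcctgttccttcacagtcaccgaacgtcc
Stra6l: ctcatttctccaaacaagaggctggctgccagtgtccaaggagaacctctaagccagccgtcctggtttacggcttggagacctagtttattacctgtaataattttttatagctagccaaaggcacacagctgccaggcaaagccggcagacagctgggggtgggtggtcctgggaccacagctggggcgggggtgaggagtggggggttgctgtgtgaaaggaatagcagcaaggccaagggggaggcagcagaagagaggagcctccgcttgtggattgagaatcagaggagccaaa
Bco1: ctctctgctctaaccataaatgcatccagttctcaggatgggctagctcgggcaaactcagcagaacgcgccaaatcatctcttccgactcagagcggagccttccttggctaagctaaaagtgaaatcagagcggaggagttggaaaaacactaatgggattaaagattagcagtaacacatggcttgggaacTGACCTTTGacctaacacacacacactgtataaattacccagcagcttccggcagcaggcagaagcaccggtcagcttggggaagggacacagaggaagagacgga
The run TGACCTTTG began at position -58 from the start in Rbp2 and at -56 in Bco1, and it was found on either strand in 0.478% of 32851 RefSeq promoter windows of 300 bases. AGGTCA, which overlaps this run on the other strand, was found on either strand in 16.3% of the windows, and Bco1 held it once more a few bases further on. Rdh7 held AGGTCA at -105 in 1 of its 2 windows and Dhrs9 held it at -88. Of the 8 genes with a window in the table (Aldh1a3 had none), no other held TGACCTTTG in any window. The Myc E-box CACGTG was in none of the windows of these 8 genes and in 7.15% of all windows. The GATA letters AGATAA were in 11.2% of all windows, and in Rbp2 they stood on the other strand at -43. They were also in 1 of the 2 windows of Aldh1a1, at -32. These are matches of letters chosen after the sequences were seen, in short windows. Their presence or absence says nothing of binding. The RefSeq start of Rbp2 lies inside the longer span given for the gene above.

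The regulators of Isx and Bco1 and the receptors of retinoic acid were measured too. Hnf4a, a nuclear receptor of enterocytes, had 1209 ± 51.3 CPM in the Myc-deleted libraries and 1243 ± 99.2 CPM in the controls (log2 fold change -0.04 ± 0.09 SE, edgeR adjusted p = 0.841). Cdx2, the intestinal homeobox factor that activates Isx, did not pass (-0.23 ± 0.11, edgeR adjusted p = 0.245), nor did Rxra (-0.12 ± 0.09, edgeR adjusted p = 0.473) or the retinoic acid receptor gene Rara (0.07 ± 0.10, edgeR adjusted p = 0.732). Gata4, a factor of the proximal small intestine, rose, with 7.59, 14.5 and 13.6 CPM in the Myc-deleted libraries, against 3.18, 5.36 and 3.98 CPM in the controls (log2 fold change 1.496 ± 0.27 SE, edgeR adjusted p = 0.00973). Gata6, its relative, also rose (log2 fold change 0.34 ± 0.09, edgeR adjusted p = 0.0425). Its call held only without control library 3 among the leave-one-out runs, and the other 5 gave 0.0546 to 0.188. Of the 6 listed regulators of Isx and Bco1, 2 rose and 4 did not pass.

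Lrat, the enzyme that esterifies retinol for storage and export (chromosome 3, 82892579 to 82903973), had 11.7, 11.1 and 9.50 CPM in Myc-deleted libraries 1 to 3, against 11.0, 13.2 and 14.6 CPM in control libraries 1 to 3. The groups overlapped, and the difference did not pass (log2 fold change -0.26 ± 0.15 SE, 95% interval -0.59 to 0.06, edgeR adjusted p = 0.330). Dgat1, which can also esterify retinol and mainly makes triglyceride, had 534 ± 40.2 CPM in the Myc-deleted libraries and 515 ± 20.7 CPM in the controls and did not pass (0.05 ± 0.08, edgeR adjusted p = 0.775). Changes were found among genes for the hydrolysis of esters. Plb1, a brush-border phospholipase with retinyl ester hydrolase activity in rats, rose 6.66-fold, with 169, 324 and 214 CPM in the Myc-deleted libraries, against 28.8, 27.0 and 50.6 CPM in the controls (log2 fold change 2.74 ± 0.28 SE, edgeR adjusted p = 0.000851). Pnliprp2, a lipase related to pancreatic lipase, rose to 26.7, 24.7 and 22.7 CPM in the Myc-deleted libraries, against 14.2, 9.77 and 8.48 CPM in the controls (1.19 ± 0.17, edgeR adjusted p = 0.00310). Both calls held in all 6 leave-one-out runs. The pancreatic acinar list, which does not include Pnliprp2, held Pnlip, pancreatic lipase itself, at 0 in every library. It also held Cela1, an elastase gene, which rose to 73, 85 and 79 counts in the Myc-deleted libraries, against 33, 40 and 34 in the controls (log2 fold change 1.10 ± 0.18 SE, edgeR adjusted p = 0.00550). The summed level of that list was 6.77 to 8.08 CPM in the Myc-deleted libraries and 3.46 to 3.58 CPM in the controls. Cela1 made up most of that sum, with 6.68, 7.89 and 7.29 CPM in the Myc-deleted libraries, against 3.28, 3.46 and 3.47 CPM in the controls. The part of pancreatic RNA in the result for Pnliprp2 was not tested. Of the 6 tested genes of esterification and hydrolysis outside the 9, 2 rose and 4 did not pass.

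Dhrs9 and Rdh7 encode short-chain dehydrogenases that oxidise retinol to retinal. Dhrs9 (chromosome 2, 69380445 to 69404533) had 3.75, 4.27 and 4.89 CPM in Myc-deleted libraries 1 to 3, against 3.08, 2.77 and 2.45 CPM in control libraries 1 to 3. The groups did not overlap, and with 24 to 53 counts a library the difference did not pass (log2 fold change 0.63 ± 0.22 SE, 95% interval 0.14 to 1.13, edgeR adjusted p = 0.124). Its fold change was close in size to those of Rbp2 and Stra6l, which were called. Rdh7 (chromosome 10, 127884028 to 127888817, minus strand) had 13.7, 17.8 and 13.0 CPM in Myc-deleted libraries 1 to 3, against 19.5, 19.0 and 12.4 CPM in the controls, and did not pass (-0.19 ± 0.19, 95% interval -0.61 to 0.22, edgeR adjusted p = 0.599).

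Rdh7 lies in a run of related genes on chromosome 10, and 1 of its neighbours fell. Rdh16 had 8.05, 4.74 and 5.44 CPM in the Myc-deleted libraries, against 15.9, 22.2 and 20.1 CPM in the controls (log2 fold change -1.67 ± 0.20 SE, edgeR adjusted p = 0.00156). Rdh9, the most abundant of the run per length, did not pass (-0.05 ± 0.10, edgeR adjusted p = 0.802), and neither did Rdh1 or Rdh16f2. Counts of Rdh7, Rdh9, Rdh16 and Rdh1 were not whole in most libraries, which means that RSEM divided reads between similar genes, so the split among them is uncertain. The sum of the 6 genes of the run was not whole in any library either, so reads were also divided with genes outside it and summing does not remove this uncertainty. With the 6 summed, the log2 fold change was -0.15 ± 0.09 (SE; edgeR adjusted p = 0.374). Rdh16 made up 1.70 ± 0.37% of the run's counts per length in the Myc-deleted libraries and 5.03 ± 0.96% in the controls, and Rdh7 15.5 ± 2.7% and 16.1 ± 2.9% in the same order (SD, n = 3 each).

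Of 18 tested retinol and retinal oxidoreductases outside the 9, 2 rose, 4 fell and 12 did not pass. Akr1b8, an aldo-keto reductase that can reduce retinal, rose 5.22-fold to 27.3 ± 8.38 CPM in the Myc-deleted libraries, against 5.25 ± 1.20 CPM in the controls (SD, n = 3 each; edgeR adjusted p = 0.000972). Akr1b7, its close relative, fell to 70.6 ± 8.63 CPM, against 115 ± 12.1 CPM in the controls (log2 fold change -0.71 ± 0.11 SE, edgeR adjusted p = 0.00422). The related pair thus went in opposite directions. Rdh11, a reductase of retinal in the endoplasmic reticulum, fell (-0.63 ± 0.11, edgeR adjusted p = 0.00803). Dhrs3, which reduces retinal back to retinol and is induced by retinoic acid, also fell, with 15.8, 20.6 and 16.2 CPM in the Myc-deleted libraries, against 23.9, 24.8 and 27.7 CPM in the controls (-0.54 ± 0.12, edgeR adjusted p = 0.0276). The call of Dhrs3 held without Myc-deleted library 2 and was lost without any of the other 5 libraries (edgeR adjusted p = 0.0546 to 0.0919). Dhrs7 rose (0.52 ± 0.13, edgeR adjusted p = 0.0403), but the call was lost when Myc-deleted library 2 or 3 (0.124 and 0.120) or control library 1 or 2 (0.116 and 0.169) was omitted. Rdh10, the main retinol dehydrogenase of embryos, and Retsat, a retinol saturase, did not pass (edgeR adjusted p = 0.665 and 0.882).

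Aldh1a1 and Aldh1a3 encode the dehydrogenases that make retinoic acid from retinal. Aldh1a1 (chromosome 19, 20492715 to 20643465) had 173, 271 and 213 CPM in Myc-deleted libraries 1 to 3, against 223, 272 and 273 CPM in control libraries 1 to 3. The groups overlapped through Myc-deleted library 2, and the difference did not pass (log2 fold change -0.23 ± 0.15 SE, 95% interval -0.56 to 0.11, edgeR adjusted p = 0.422). Aldh1a3 (chromosome 7, 66390890 to 66427517, minus strand) had 6.04, 2.88 and 3.51 CPM in Myc-deleted libraries 1 to 3, against 3.58, 3.29 and 4.19 CPM in the controls. Its Myc-deleted libraries lay on both sides of the controls, and it did not pass (0.17 ± 0.29, 95% interval -0.48 to 0.83, edgeR adjusted p = 0.785, and -0.20 without Myc-deleted library 1). Per length, Aldh1a1 made up 96.9 ± 1.5% of the counts of Aldh1a1, Aldh1a2 and Aldh1a3 in the Myc-deleted libraries and 97.8 ± 0.38% in the controls (SD, n = 3 each). Aldh1a2, the form of stroma and of dendritic cells, had 7 to 17 counts in a Myc-deleted library and 6 to 12 in a control.

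Aldh1a7, a neighbour of Aldh1a1 on chromosome 19 that closely resembles it, fell to 26.6, 37.4 and 24.4 CPM in the Myc-deleted libraries, against 44.7, 50.7 and 56.1 CPM in the controls (log2 fold change -0.78 ± 0.15 SE, edgeR adjusted p = 0.0141). Omitting control library 2 or 3 gave an adjusted p of 0.0586 and 0.0539. Counts of Aldh1a1 and Aldh1a7 were not whole, while their sum was whole in every library, to 0.01 counts. RSEM therefore divided reads between the pair, and the split is uncertain. Summed, the pair did not pass (-0.30 ± 0.15, edgeR adjusted p = 0.265).

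**Figure D3:**
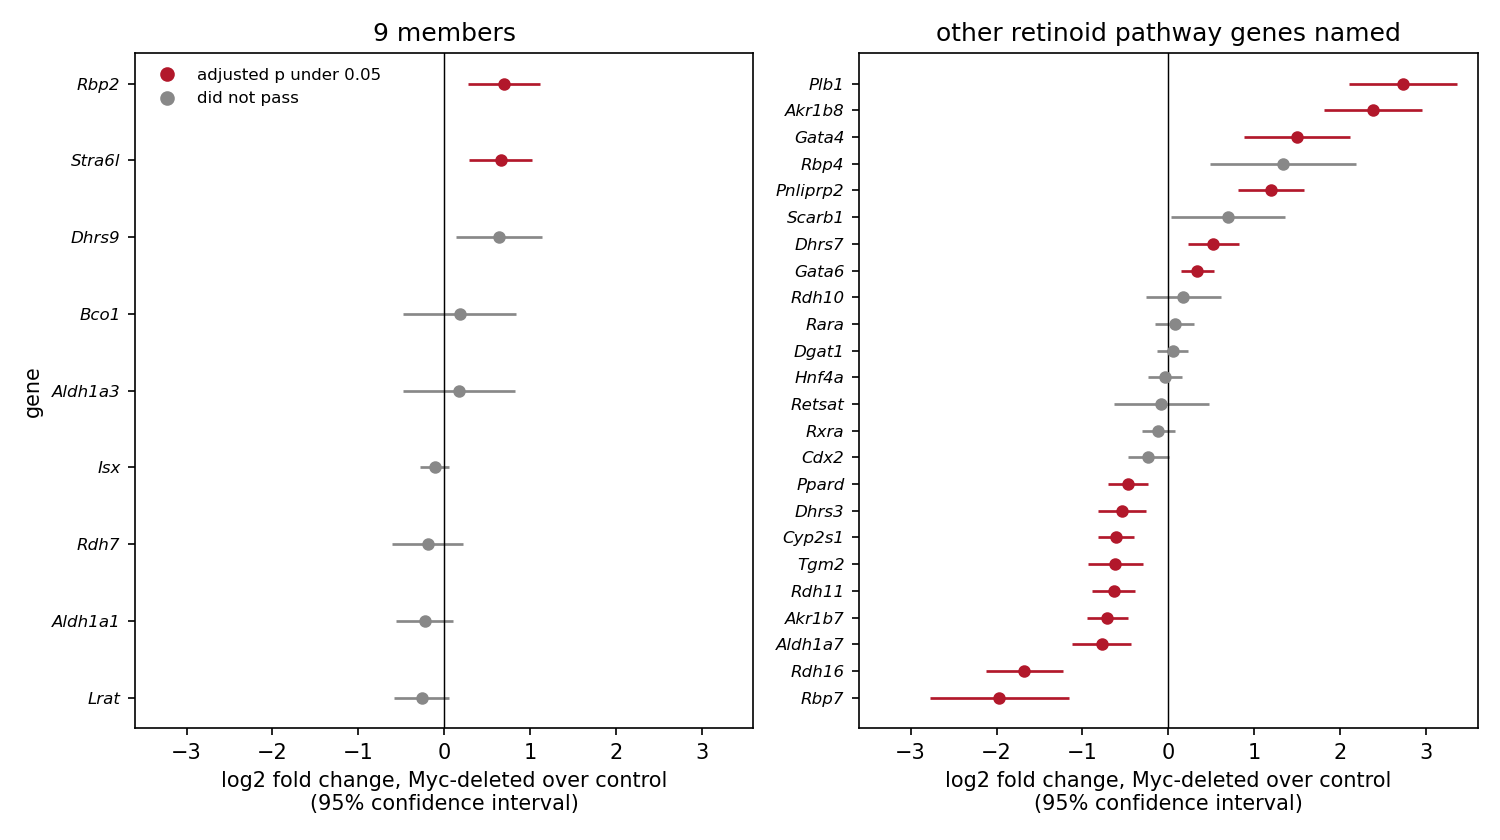
Log2 fold change of Myc-deleted over control with its 95% confidence interval for the 9 genes (left) and for other retinoid pathway genes named in the text that were tested (right), red where the edgeR adjusted p was under 0.05. Bco2, Rdh1, Rdh9 and Rdh16f2, which were tested and did not pass, are not drawn. Rbp2 and Stra6l are the red points at left, and at right the values reach from -1.97 for Rbp7 to 2.74 for Plb1.

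Among genes that answer to retinoic acid, the breakdown enzymes and Rarb were scarce, while Tgm2, Isx and Dhrs3 were well counted. Cyp26a1, the retinoic acid hydroxylase that responds most sharply to it, was counted 3 times in Myc-deleted library 1 and never in the other 5 libraries. Cyp26b1 had 17, 11 and 8 counts in the Myc-deleted libraries, against 6, 8 and 4 in the controls, and Rarb had 3 to 4, against 1 to 5. They were left out by the filter, and without it none of them passed (edgeR adjusted p = 0.559 for Cyp26a1, 0.461 for Cyp26b1 and 0.934 for Rarb). Of the 4 tested targets outside the 9, Dhrs3 and Tgm2 fell and 2 did not pass. Tgm2, a transglutaminase, had 165, 119 and 161 CPM in the Myc-deleted libraries, against 221, 193.5 and 267 CPM in the controls (log2 fold change -0.62 ± 0.14 SE, edgeR adjusted p = 0.0295). Omitting Myc-deleted library 2 gave an adjusted p of 0.0789, and omitting control library 1 or 3 gave 0.0721 and 0.0946. Isx and Lrat, which retinoic acid also induces, did not pass, as given above. Cyp2s1, a cytochrome P450 that oxidises retinoic acid in human cells, fell (-0.61 ± 0.09, edgeR adjusted p = 0.00434), and its call held in all 6 leave-one-out runs. Ppard, a receptor that retinoic acid can bind, fell (-0.47 ± 0.11, edgeR adjusted p = 0.0240), and the call was lost on omitting Myc-deleted library 2 or 3 (0.0879 and 0.0716) or control library 1 or 3 (0.0575 and 0.0795).

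Over all 69 listed pathway genes outside the 9, 50 were tested, of which 6 rose, 9 fell and 35 did not pass, beside 4.22% and 3.73% of all tested genes. Their median log2 fold change was -0.05, beside -0.002 over all tested genes. The count of fallers was 5 without control library 3. The risers were Plb1, Pnliprp2, Akr1b8, Dhrs7, Gata4 and Gata6, and the fallers were Rbp7, Rdh11, Rdh16, Dhrs3, Akr1b7, Aldh1a7, Cyp2s1, Ppard and Tgm2.

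Per length, Rbp2 was by far the most abundant of the 9 genes. CPM per kilobase of exon were 756 ± 181 for Rbp2 in the Myc-deleted libraries and 466 ± 92.0 in the controls (SD, n = 3 each). Isx followed with 69.1 ± 3.30 in the Myc-deleted libraries and 74.5 ± 3.73 in the controls, then Aldh1a1 with 44.3 ± 9.97 and 51.8 ± 5.84 in the same order. Rdh7 stood at 8.85 ± 1.55 in the Myc-deleted libraries and 10.1 ± 2.37 in the controls, Bco1 at 5.80 ± 2.83 and 5.12 ± 0.75, and Lrat at 2.02 ± 0.214 and 2.42 ± 0.337. Among the 9, the transcription factor gene Isx thus stood above the enzymes per length in both groups. Its place above Aldh1a1 rests on the lengths used, 1793 bases for Isx and 4937 for Aldh1a1. In CPM, Aldh1a1 lay above Isx, with means of 219 and 124 in the Myc-deleted libraries and 256 and 134 in the controls. Per length, Stra6l, Dhrs9 and Aldh1a3 were the lowest, with group means between 0.646 and 1.05. The ranges of neighbours among these 3 overlapped in both groups, as did those of Rdh7 and Bco1 in the Myc-deleted libraries. The other neighbours in this order did not overlap within a group. Lengths are of all annotated exons joined, which understates genes with many exon variants or long untranslated ends.

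Rbp2 was lowest in Myc-deleted library 1 and in control library 2 of their groups, and so were 2 of the 12 villus enterocyte markers, Apoa4 and Fabp2. Of the 12, 7 were instead highest in Myc-deleted library 1 among the Myc-deleted libraries, among them Vil1 and Apoa1. Among the controls, 8 of the 12 were lowest in control library 2, as Rbp2 was. Apoa4, an apolipoprotein of chylomicrons, had 2154, 4500 and 3500 CPM in Myc-deleted libraries 1 to 3, against 2367, 1318 and 2390 CPM in control libraries 1 to 3. Fabp2, a fatty acid binding protein of the Rbp2 family, rose (log2 fold change 0.90 ± 0.18 SE, edgeR adjusted p = 0.0132) and had 6795, 11010 and 8768 CPM in Myc-deleted libraries 1 to 3, against 5315, 4153 and 4808 CPM in control libraries 1 to 3. Lct, the lactase gene, which is highest in the proximal small intestine, had 6.77, 30.4 and 18.9 CPM in Myc-deleted libraries 1 to 3, against 1.59, 1.04 and 3.78 CPM in the controls. Of 12 villus enterocyte markers 2 rose (Fabp2 and Apoa1) and 0 fell, and none was at 0. At an unadjusted p under 0.05 by edgeR, 6 of the 12 were higher and 0 lower. The fold change was positive for 10 and negative for 2. Their summed level was 54890 to 59860 CPM in the Myc-deleted libraries and 42710 to 50930 CPM in the controls. Of 8 markers of the proximal small intestine 4 were tested, of which Gata4 and Lct rose and the iron exporter gene Slc40a1 fell. Adh6a, the other tested, did not pass (log2 fold change -0.91 ± 0.25 SE, edgeR adjusted p = 0.0576). At an unadjusted p under 0.05 by edgeR, 2 of the list were higher and 2 lower. The summed level of that list was 48.1 to 65.8 CPM in the Myc-deleted libraries and 81.9 to 155 CPM in the controls. Slc40a1 made up most of that sum in the controls, with 59.2, 84.1 and 111 CPM in control libraries 1 to 3. It had 14.1, 8.27 and 8.21 CPM in Myc-deleted libraries 1 to 3. The sum therefore does not speak for Gata4 and Lct, which rose. Other epithelial lists were measured too. Of 8 crypt and cycling markers 7 were tested, with 0 called by edgeR. Of these, 3 were lower at an unadjusted p under 0.05 (Olfm4, Smoc2 and Mki67). Of 7 Paneth markers 0 were called by edgeR, with 3 higher at an unadjusted p under 0.05. Of 7 goblet markers 0 were called, with 1 higher at that unadjusted level, and of 5 tested tuft markers 0 at either level. The ileal, enteroendocrine and colon lists held called genes. Of 6 ileal markers Fgf15, a hormone gene induced by bile acids, rose 3.86-fold to 305.8, 588 and 464 CPM in the Myc-deleted libraries, against 143, 76.5 and 133 CPM in the controls, and it too was lowest in Myc-deleted library 1 and control library 2. Guca2a of that list was lowest in the same libraries, by small margins. Slc10a2, Osr2 and Cubn were instead highest in Myc-deleted library 1 among the Myc-deleted, and Fabp6 was lowest in control library 3 among the controls. Of 8 enteroendocrine markers 3 rose (Gcg, Sst and Chgb), with a summed level of 215 to 273 CPM in the Myc-deleted libraries and 160.5 to 182 CPM in the controls. Of 7 colon markers 4 were tested and 2 fell (Car4 and Mettl7b), with Aqp8 and Hoxb13 at 0 in every library. Car1, left out by the filter, went the other way, with 9, 21 and 30 counts in the Myc-deleted libraries, against 0, 5 and 2 in the controls. The summed level of the colon list was 333 to 380 CPM in the Myc-deleted libraries and 495 to 555 CPM in the controls. Most of that difference lay in Car4, with 73.7, 67.3 and 101 CPM in the Myc-deleted libraries, against 190, 226.5 and 225 CPM in the controls. The part of enterocyte, crypt, Paneth, endocrine or regional make-up in the difference of Rbp2 was not tested. In bulk RNA, more cells of a type and more RNA per cell cannot be told apart.

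Across the 6 libraries, the gene whose log2 CPM, centred on the control mean, was closest to that of Rbp2 was Tlcd2, with a root mean square difference of 0.0437, followed by Gm29367 (0.0952) and Epop (0.117). Rbp2 was added to this search after its values were seen. For Stra6l the closest were Scamp5 (0.0596), Myadm (0.0858) and Gch1 (0.0882). For Lrat, which had the lowest p of the 4 genes with a negative fold change, they were Mfsd10 (0.0320), Itga2 (0.0516) and Sh3bp2 (0.0520). They were taken from 11154 genes outside the pathway lists. Such closeness over 6 libraries is a description, since so many genes were searched. The closest genes of Rbp2 shared its low value in Myc-deleted library 1 among the Myc-deleted and in control library 2 among the controls. That follows from how they were chosen and is no result of its own. Stra6l did not have this pattern.

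**Figure D4:**
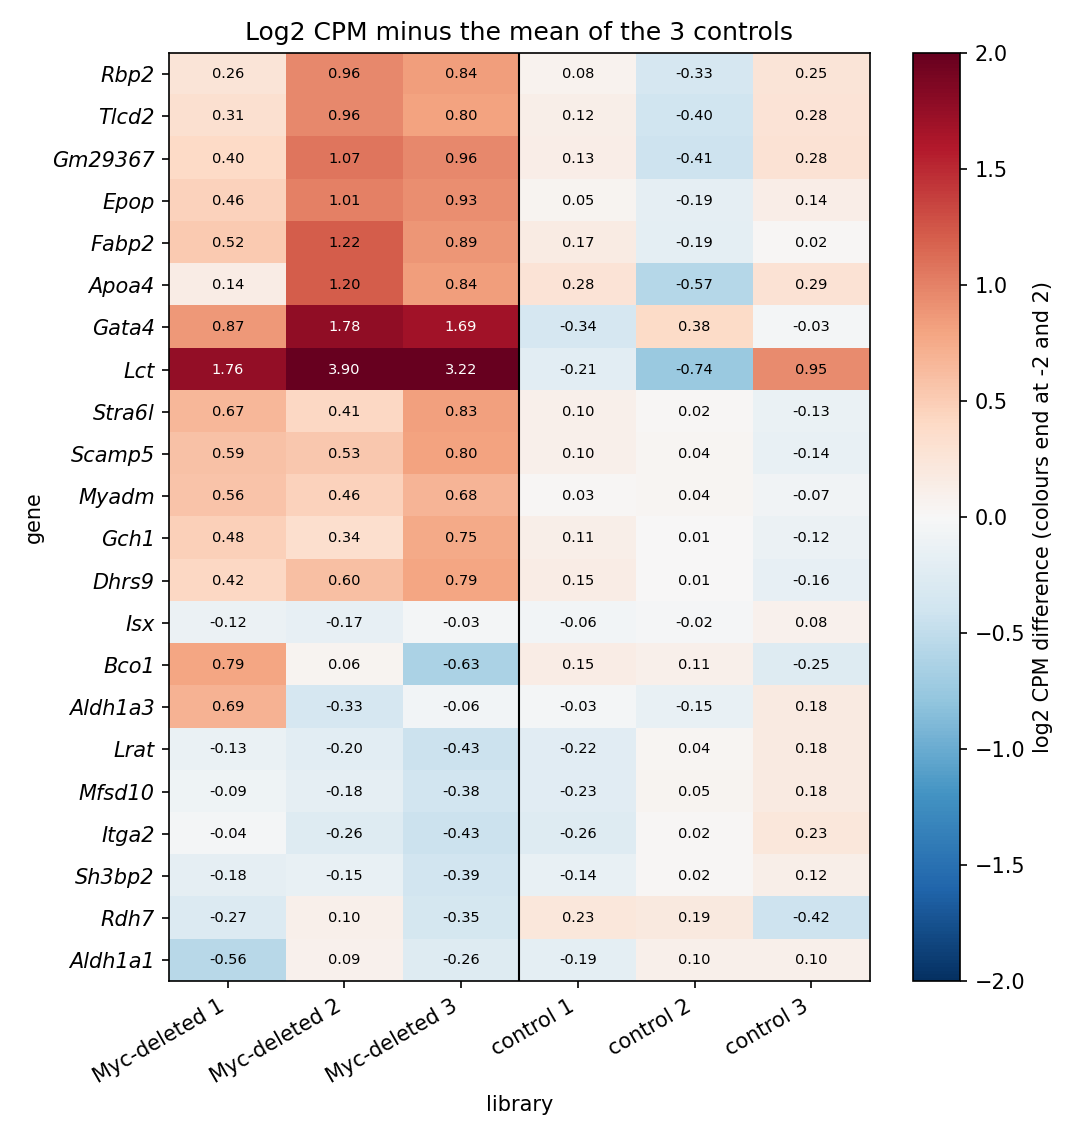
Log2 CPM of each library minus the mean of the 3 controls, for the 9 genes, the genes closest to Rbp2, Stra6l and Lrat, and 4 enterocyte or proximal genes (colours end at -2 and 2). Rbp2 reads 0.26, 0.96 and 0.84 in Myc-deleted libraries 1 to 3 and Stra6l 0.67, 0.41 and 0.83, so their order among the Myc-deleted libraries differs.

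Markers of cells outside the epithelium gave few calls. Of 8 macrophage and dendritic cell markers 7 were tested, with 0 called by edgeR and 1 lower at an unadjusted p under 0.05. Of 8 markers of fibroblasts and smooth muscle 0 were called by edgeR, with 2 lower at an unadjusted p under 0.05. Of 8 T and B cell markers and 5 endothelial markers 0 were called by edgeR, with 0 at an unadjusted p under 0.05 as well. Their summed levels in the Myc-deleted libraries were 54.8 to 63.3 CPM for macrophages and dendritic cells, 63.4 to 90.1 for fibroblasts and smooth muscle, 337 to 391 for T and B cells and 13.3 to 17.8 for endothelium. In the controls they were 62.6 to 69.7, 65.8 to 123, 346 to 358 and 14.0 to 16.1 CPM in the same order. Of 8 hepatocyte markers 3 were tested, and Alb and Tat were lower in the Myc-deleted libraries (edgeR adjusted p = 0.0326 and 0.0276). The summed level of that list was 7.71 to 19.7 CPM in the Myc-deleted libraries and 28.6 to 46.8 CPM in the controls. Tat made up most of that sum, with 14.3, 4.83 and 16.0 CPM in the Myc-deleted libraries, against 24.25, 31.6 and 40.7 CPM in the controls. The part of these cells in the results for the 9 genes was not tested.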

How the data were processed

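RNA of 6 intestinal samples (3 Myc-deleted, 3 control) was read as stranded mRNA libraries, per the labels. The authors deposited RSEM expected counts per gene (STAR alignments to mm10), per the submitters' processing notes, with no versions or annotation release. Of the deposited values, 8.31% were not whole, and expected counts were rounded before testing. Depth was 9956938 to 11328693 counts a library, and 3 counts equal 0.259 to 0.306 CPM, for counting error only.

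Genes were tested with edgeR 4.0.16 in R 4.3.3 (filterByExpr with a minimum count of 10 and a total of 15, TMM scaling, quasi-likelihood F-test, Benjamini-Hochberg over 12720 genes, threshold 0.05), with no covariate. CPM are TMM-scaled, and levels per length use all exons of GENCODE M21. Log2 CPM used a prior count of 2. Exact permutation of 3 against 3 libraries cannot go below 0.1 and was not used. DESeq2 1.42.0, limma 3.58.1 voom, other scalings and filters, a replicate block, omission of each library and summed paralogs (chosen after seeing the data) were the alternatives. Replicate numbers were not used to pair the samples in the main test, since the labels do not say whether they mark pairs.

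The 9 genes, pathway lists and markers were chosen with earlier results of these data known. The text names the 9 genes, every pathway gene past the threshold, a fixed set of pathway genes and the 3 genes of mean log2 CPM of at least 1 closest to the gene with the lowest p in each direction. Genes named beyond this rule (Bco2, Rdh1, Rdh9, Rdh16f2, Cyp26a1, Rarb and the genes closest to Rbp2) were chosen after their values were seen. Calculations were tested on simulated data.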

Additional observations from a re-analysis of the deposited data

How the results depend on the processing

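Of the 9 genes, 2 were called higher by edgeR with TMM scaling, without a filter on low counts, with a filter at 1 CPM in 3 libraries and with paralogs summed. The number was 1 with RLE scaling, upper-quartile scaling, TMM without ribosomal protein genes or limma voom, and 0 with DESeq2. Leaving out 1 library gave 0 to 1, and none was called lower under any alternative tried. Rbp2 and Stra6l kept a positive fold change under all 15 alternatives, and the cause of the lost calls was not tested. Of the other pathway genes, 4 to 6 were called higher and 5 to 9 lower with 1 library left out. Over all genes, 229 to 503 were called higher and 233 to 447 lower with 1 library left out, against 537 and 474 with all libraries.

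With 1 library left out, the log2 fold change of some uncalled genes changed sign. It ran from -0.26 (without Myc-deleted library 1) to 0.46 for Bco1, from -0.20 (without Myc-deleted library 1) to 0.37 for Aldh1a3 and from -0.39 to 0.16 for Retsat, which was above 0 without Myc-deleted library 1 (0.16) or control library 3 (0.10). It ran from -0.015 to 0.10 for Dgat1 and from -0.036 to 0.35 for Rdh10, both below 0 without Myc-deleted library 2. It ran from -0.0039 to 0.15 for Rara, below 0 without Myc-deleted library 2 or control library 2 (-0.0015), and from -0.12 to 0.0011 for Hnf4a, above 0 without control library 1. None of these genes was called in any setting.

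Deviations of same-numbered libraries correlated at 0.026, 0.052 and 0.019, so the numbers are not taken to pair samples. However, 6 of 6 libraries correlated best with their own number, so a pairing was neither shown nor excluded. With the replicate block 0 of the 9 genes were called by edgeR (3 higher and 1 lower at an unadjusted p under 0.05), and 5 pathway genes were called higher and 9 lower. Depth limits Cyp26a1, Cyp26b1, Rarb and Aldh1a2, which had at most 17 counts in a library.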
